A study of Mus musculus with 25 samples.

Results

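The 10 imprinted growth network genes H19, Igf2, Dlk1, Meg3, Plagl1, Cdkn1c, Peg3, Grb10, Mest and Ndn were followed in hippocampal RNA-seq libraries of Scn1a+/- mice and their wild-type controls. Scn1a encodes a voltage-gated sodium channel, and mice with 1 working copy are a model of Dravet syndrome, a childhood epilepsy. The 10 genes were chosen by symbol from the 24421 in the count files, and all 10 were among the 15912 that passed the filter on low counts. The 25 libraries were made from pooled hippocampi of mice at postnatal day 24 (P24) or 14 (P14), either on the 129S6/SvEvTac strain (129S6) or as the [129S6/SvEvTac x C57BL/6]F1 hybrid (F1). At P24 there were 3 libraries of F1 Scn1a+/- mice with seizures, 2 of F1 Scn1a+/- mice for which no seizures are stated, 3 of F1 wild-type mice, 3 of 129S6 mice labelled Scn1a+/- and 3 of 129S6 mice labelled wild type. At P14 there were 3 libraries of F1 Scn1a+/- mice, 3 of F1 wild-type mice, 3 of 129S6 Scn1a+/- mice and 2 of 129S6 wild-type mice. Pools of the seizure group held 3 to 4 mice and the other pools 12 to 16. Scn1a+/- is a germline genotype, so every cell of those mice carries it. Which parent came from which strain in the F1 cross is not stated, and total counts do not separate the maternal from the paternal allele.

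Imprinted genes are transcribed mainly from the copy inherited from 1 parent. The growth network among them is active before birth and is switched down in many tissues after it. Igf2 encodes a growth factor of the insulin family, and H19, a long non-coding RNA beside it, shares its enhancers and is read from the opposite parental copy. Dlk1 encodes a membrane protein with EGF repeats and lies near the non-coding RNA Meg3 in a second imprinted domain. Plagl1 is a zinc-finger transcription factor, Cdkn1c an inhibitor of cyclin-dependent kinases that restrains proliferation, Peg3 a zinc-finger protein, Grb10 an adaptor that binds the insulin and IGF1 receptors and dampens their signal, Mest a protein of the hydrolase family, and Ndn (necdin) a protein of differentiated neurons. In the brain, Igf2 is known for its high level in the meninges and choroid plexus.

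H19 lies at chr7:142575530-142578146 and Igf2 at chr7:142650768-142666816 (GRCm38.p6, the RefSeq annotation of the mm10 genome). Dlk1 lies at chr12:109452485-109463336 and Meg3 at chr12:109540996-109571729 of the same assembly. Cdkn1c, Peg3 and Ndn are also on chromosome 7, Plagl1 on chromosome 10, Grb10 on chromosome 11 and Mest on chromosome 6. The library kit does not mark strand, so reads of Igf2 cannot be told from those of Igf2os where the 2 overlap, and the same holds for Meg3 and Rtl1, Plagl1 and Hymai, Peg3 and Peg3os, and Mest and Copg2.

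H19 is the host transcript of the microRNA miR-675. Its mature sequences are shown because they are a product through which the H19 transcript can reach other messages. They are given from RefSeq (GRCm38.p6, minus strand, chr7:142577112-142577133 for the 5p arm and chr7:142577078-142577099 for the 3p arm), with the seed, bases 2 to 8, in capitals. The 2 arms have different seeds, and these libraries do not measure them.
miR-675-5p: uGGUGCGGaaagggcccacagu
miR-675-3p: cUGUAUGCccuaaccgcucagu

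Windows of 300 bases around an annotated start, most of them upstream of it, were taken from RefSeq (GRCm38.p6) for the 8 members that have an entry. A few of them are shown because these genes carry the main age and seizure results: the Igf2 window nearest the 3′ end of the gene (chr7:142657447-142657746, minus strand), the Dlk1 window (chr12:109452573-109452872, plus strand) and the first Meg3 window (chr12:109540746-109541045, plus strand). Capitals mark CG pairs and, in Meg3, the motif TATAAA with its reverse complement TTTATA, which overlap there.
Igf2: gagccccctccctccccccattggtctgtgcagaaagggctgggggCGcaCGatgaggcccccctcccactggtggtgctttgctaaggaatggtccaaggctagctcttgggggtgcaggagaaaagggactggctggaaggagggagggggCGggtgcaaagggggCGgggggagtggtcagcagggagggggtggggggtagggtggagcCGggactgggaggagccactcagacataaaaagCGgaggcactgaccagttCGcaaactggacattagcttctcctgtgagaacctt
Dlk1: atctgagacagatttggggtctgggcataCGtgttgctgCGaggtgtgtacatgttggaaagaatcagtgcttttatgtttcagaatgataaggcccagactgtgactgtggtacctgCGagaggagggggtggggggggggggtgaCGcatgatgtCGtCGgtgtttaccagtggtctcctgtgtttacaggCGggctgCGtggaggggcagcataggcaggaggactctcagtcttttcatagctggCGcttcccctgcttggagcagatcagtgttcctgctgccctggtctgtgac
Meg3: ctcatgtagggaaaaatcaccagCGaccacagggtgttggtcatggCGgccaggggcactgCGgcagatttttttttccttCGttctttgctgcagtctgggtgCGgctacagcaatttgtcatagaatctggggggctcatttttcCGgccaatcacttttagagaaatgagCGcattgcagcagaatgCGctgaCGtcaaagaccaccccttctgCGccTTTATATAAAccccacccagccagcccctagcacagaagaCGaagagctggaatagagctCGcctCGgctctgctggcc
TATAAA was searched on both strands, and the Meg3 window was the only one of the members' windows that held it, with 2 overlapping matches. Of 32851 windows of all genes, 13.6% held it. GGGGCCCC, which is its own reverse complement, was found in the Peg3 window and in 1.08% of all windows. The shown Igf2 window held 7 CG pairs, as the median window did, the Dlk1 window 9 and the Meg3 window 13. The first Grb10 window held 45, as many as or more than which only 1.93% of windows had.

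Total counts ran from 7436442 to 25520050 per library, and 3 counts corresponded to 0.119 to 0.403 CPM (counts per 1000000 counts of the library, after TMM scaling). Markers of hippocampal principal cells were present throughout, with Prox1 at 87.2 to 125 CPM and Neurod6 at 141 to 246 CPM. Scn1a itself averaged 79.9 CPM with seizures. It was 115 and 92.8 CPM in the P24 F1 Scn1a+/- libraries and 124 to 130 CPM in P24 F1 wild type. In the P24 129S6 libraries Scn1a went against the labels: 135, 144 and 142 CPM in those labelled Scn1a+/- and 110, 109 and 111 CPM in those labelled wild type, and the names of their files also give the opposite genotype. Age and strain comparisons average the genotype groups of an age and strain, so an exchange of those labels leaves them unchanged. The 3 seizure libraries differed more among themselves than other replicates did: chi-square per degree of freedom over genes was 18.3 to 40.2 between them and 2.42 to 8.59 between replicates of any other group.

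Levels of different members were compared per kilobase of annotated exon (GENCODE vM39 lengths), a rough scale because the transcripts used in hippocampus may be shorter. Meg3 stood highest in every set of libraries, at 284 CPM per kb in P24 F1 libraries without seizures and 277 in P14 F1 libraries. Ndn was next, at 43.2 CPM per kb in P24 F1 libraries without seizures and 58.7 in P14 F1 libraries. Igf2 and Peg3 followed and changed places. In P14 129S6 libraries Igf2, at 29.7 to 36.0 CPM per kb, stood above Peg3, at 15.5 to 17.9. In P14 F1 and in P24 129S6 libraries the ranges of the 2 overlapped. In P24 F1 libraries without seizures Igf2 averaged 12.2 CPM per kb and Peg3 17.4. Cdkn1c came next in every set of libraries. Grb10, Plagl1 and Mest followed within overlapping ranges of 1 another at P14 in F1 and at P24 in 129S6. By the mean, H19 was the ninth and Dlk1 the last of the 10 at P14, and at P24 their places were exchanged, in both strains. At P14 the range of H19 overlapped those of Mest and Plagl1 in both strains, and that of Grb10 in 129S6.

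**Figure D1:**
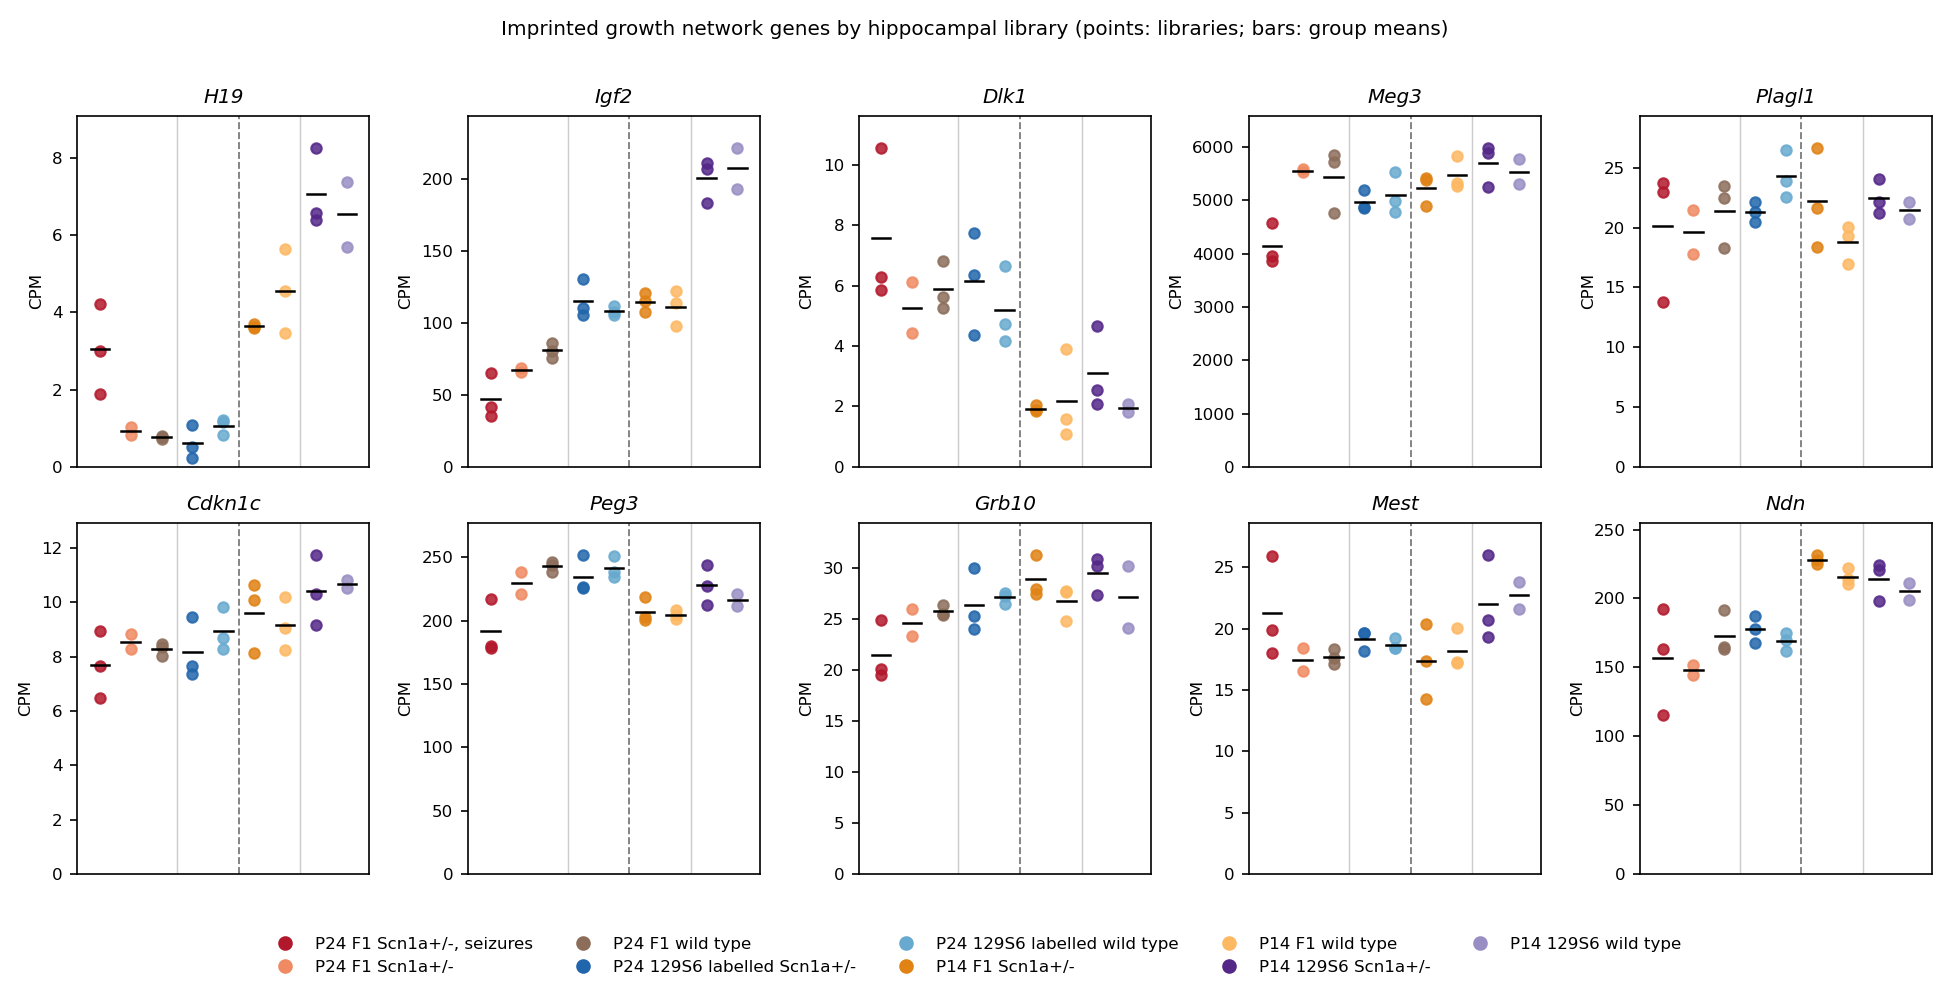
CPM of the 10 members in each of the 25 libraries (points) with group means (bars), linear axes from 0, 1 panel per gene; the dashed line parts P24 from P14. H19 lies at 0.712 to 1.04 CPM in P24 F1 libraries without seizures, 1.90 to 4.22 CPM with seizures and 3.48 to 5.66 CPM in P14 F1 libraries, and Dlk1 runs the other way with age.

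Age was compared within each strain, P24 over P14, with both genotypes averaged and the seizure libraries left out. Between the 2 ages H19, Igf2 and Ndn fell and Dlk1 rose in both strains, while Plagl1 and Grb10 passed the test in neither. In F1, 2 of the 10 members rose and 3 fell, where 19% of all tested genes rose and 19.4% fell. In 129S6, 1 rose and 6 fell, where 17.3% of tested genes rose and 17.1% fell. The median log2 fold change of the 10 was -0.08 in F1 and -0.20 in 129S6, beside 0.00 and 0.01 over all tested genes. The members thus did not move as a block: 6 fell in at least 1 strain, and 2 rose.

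H19 changed most. It had 1.04, 0.832, 0.712, 0.799 and 0.779 CPM in P24 F1 libraries, against a lowest value of 3.48, a median of 3.67 and a highest of 5.66 CPM in P14 F1 libraries. The highest P24 library lay well under the lowest P14 library. It was 4.83-fold lower at P24 in F1 (log2 fold change -2.27 ± 0.24 SE, edgeR quasi-likelihood adjusted p = 3.79e-09). In 129S6 it had a lowest value of 0.230, a median of 0.963 and a highest of 1.22 CPM at P24, against 8.27, 6.40, 6.58, 5.71 and 7.39 CPM at P14. Those ranges were also apart, and the lowest P24 library rested on 3 counts. The fall in 129S6 was 8.67-fold (log2 fold change -3.12 ± 0.23, edgeR adjusted p = 1.25e-12).

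Igf2 fell less than H19 on the log2 scale. It had 68.7, 65.8, 75.8, 80.7 and 86.2 CPM in P24 F1 libraries, against a lowest value of 97.7, a median of 115 and a highest of 122 CPM at P14. Every P24 library was under every P14 library. The difference was 1.53-fold (log2 fold change -0.62 ± 0.10, edgeR adjusted p = 4.45e-06). In 129S6 it had a lowest value of 105.5, a median of 109 and a highest of 131 CPM at P24, against 211, 183, 207, 193 and 222 CPM at P14. The groups did not overlap there either, and the difference was 1.82-fold (log2 fold change -0.87 ± 0.09, edgeR adjusted p = 4.40e-09).

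Dlk1 rose. It had 4.42, 6.10, 6.81, 5.26 and 5.63 CPM in P24 F1 libraries, against a lowest value of 1.08, a median of 1.87 and a highest of 3.90 CPM in P14 F1 libraries. The groups did not overlap, although 1 P14 wild-type library, at 3.90 CPM, stood apart from the others of its age. The difference was 2.68-fold (log2 fold change 1.42 ± 0.25, edgeR adjusted p = 2.88e-05). In 129S6 it had a lowest value of 4.15, a median of 5.54 and a highest of 7.76 CPM at P24, against 2.54, 4.66, 2.09, 1.82 and 2.09 CPM at P14. One P14 library, at 4.66 CPM, lay inside the P24 range, and the difference was 2.35-fold (log2 fold change 1.23 ± 0.24, edgeR adjusted p = 0.000155).

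Its neighbour Meg3 did not follow it. Meg3 had 5588, 5535, 4767, 5714 and 5851 CPM in P24 F1 libraries, against a lowest value of 4897, a median of 5354 and a highest of 5839 CPM at P14, and these ranges overlapped (log2 fold change 0.04, 95% interval -0.08 to 0.16). In 129S6 it was 1.12-fold lower at P24 (log2 fold change -0.16 ± 0.06, edgeR adjusted p = 0.0332), with overlapping libraries, 4790 to 5527 CPM at P24 and 5246 to 5992 CPM at P14. That call was lost without any of 7 of the 11 129S6 libraries in turn, with adjusted p up to 0.153.

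Ndn fell by 0.47 ± 0.08 on the log2 scale in F1 (edgeR adjusted p = 9.02e-06). It had 152, 144, 192, 163 and 164 CPM in P24 F1 libraries, against a lowest value of 210, a median of 223 and a highest of 232 CPM at P14, and the groups did not overlap. In 129S6 it had 162 to 187 CPM at P24 and 198 to 224 CPM at P14, again apart, and fell by 0.27 ± 0.08 on the log2 scale (edgeR adjusted p = 0.00475). With only the groups labelled wild type the log2 fold change in 129S6 was -0.28 and was not called (edgeR adjusted p = 0.0823). Peg3 rose slightly in F1, with 221 to 247 CPM at P24 and 200 to 219 CPM at P14, ranges that did not touch (log2 fold change 0.20 ± 0.05, edgeR adjusted p = 0.00326). In 129S6 its ranges overlapped and its log2 fold change of 0.10 did not pass (edgeR adjusted p = 0.146).

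The remaining members changed little. Cdkn1c had 8.02 to 8.83 CPM in P24 F1 libraries and 8.13 to 10.6 CPM at P14 (log2 fold change -0.16, edgeR adjusted p = 0.259). In 129S6 it had 7.35 to 9.83 CPM at P24 and 9.17 to 11.8 CPM at P14, and there it fell by 0.30 ± 0.10 on the log2 scale (edgeR adjusted p = 0.0226). Mest fell by 0.23 ± 0.09 in 129S6 (edgeR adjusted p = 0.0492), with 18.2 to 19.7 CPM at P24 and 19.4 to 26.0 CPM at P14. For both genes the ranges overlapped. The Mest call sat at the threshold and was lost in 12 of the 25 fits that left out 1 library, and the Cdkn1c call in 3. For Mest these included fits without P14 F1 Scn1a+/- replicate 3 or P14 F1 wild-type replicate 1 or 3, libraries outside the comparison. With only the groups labelled wild type, the 129S6 calls of Meg3, Cdkn1c and Mest were all lost (edgeR adjusted p = 0.377, 0.248 and 0.163). In F1 Mest had 16.5 to 18.4 CPM at P24 and 14.3 to 20.4 CPM at P14. Grb10 had 23.4 to 26.4 CPM at P24 and 24.8 to 31.3 CPM at P14 in F1, and Plagl1 had 17.8 to 23.5 CPM at P24 and 17.0 to 26.7 CPM at P14. The 95% intervals of the F1 log2 fold change were -0.30 to 0.02 for Grb10, -0.23 to 0.22 for Plagl1 and -0.22 to 0.17 for Mest.

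**Figure D2:**
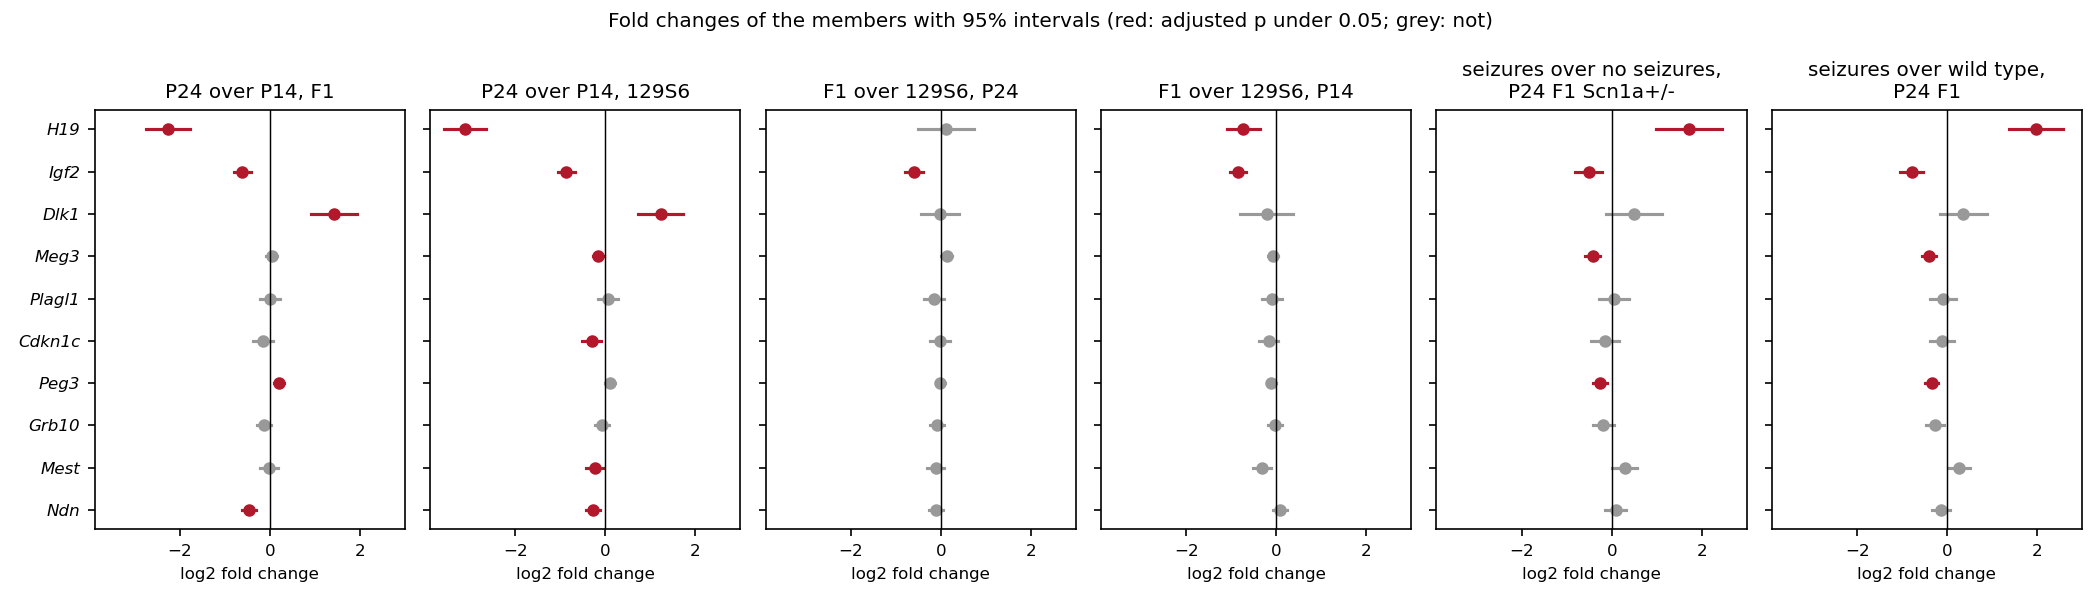
Log2 fold changes of the 10 members in the age, strain and seizure comparisons (points) with 95% intervals (lines); red marks an edgeR adjusted p under 0.05. H19 is at -2.27 and -3.12 for age and at 1.72 and 1.98 for seizures, and Igf2 is below 0 in all 6 panels.

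Markers of other cells moved with age as well. The 12 markers of immature neurons and progenitors, Dcx and Sox11 among them, all fell in both strains, and their summed level was 530 to 558 CPM in P24 F1 libraries and 1066 to 1173 CPM in P14 F1 libraries. The 20 leptomeningeal and fibroblast markers, from the membrane in which Igf2 is high, summed to 145 to 161 CPM at P24 and 167 to 187 CPM at P14 in F1, and to 159 to 187 CPM at P24 and 199 to 232 CPM at P14 in 129S6. In F1, 2 of these 20 rose and 7 fell, and in 129S6 none rose and 7 fell. None of the 20 was at 0 in any library. Choroid plexus markers, the other place of high Igf2, overlapped between ages: 685 to 1056 CPM at P24 and 596 to 991 CPM at P14 in F1, and 1027 to 1609 CPM at P24 and 999.7 to 1557 CPM at P14 in 129S6. These sums, here and below, rest mainly on Ttr and Enpp2, with means of 685 and 246 CPM over all libraries. The next highest choroid plexus marker, Kl, had 22.4 CPM. The median log2 fold change of the choroid plexus markers was 0.26 in F1, with 3 of 15 higher and 3 lower, and 0.11 in 129S6, with 3 higher and 2 lower. Pericyte and smooth muscle markers summed to 179.9 to 192.5 CPM at P24 and 248.1 to 262.7 CPM at P14 in F1, with 0 of 12 higher and 5 lower. In 129S6 they summed to 149.8 to 175.1 CPM at P24 and 226.5 to 251.6 CPM at P14. Sums of thalamic and habenular markers and of astrocyte markers were also lower at P24, without overlap, in both strains. These lists did not fall as a whole in F1. There 1 of 9 tested thalamic and habenular markers rose and 3 fell, and 2 of 10 astrocyte markers rose and 4 fell. The median log2 fold change of the astrocyte markers was 0.07 in F1, and Slc1a2, with a mean of 5098 CPM over all libraries, weighs most in their sum. The 10 oligodendrocyte markers went in the direction of Dlk1. All 10 rose in both strains, and they summed to 14040 to 16200 CPM at P24 and 5834 to 8184 CPM at P14 in F1, and to 12790 to 14190 CPM at P24 and 6170 to 6929 CPM at P14 in 129S6. Hypothalamic markers summed to 6.38 to 16.8 CPM in P14 129S6 libraries, with a median of 7.15 CPM. The highest sum was in Scn1a+/- replicate 2, which also had the highest Dlk1 of those libraries, 4.66 CPM. In F1, wild-type replicate 2 had the highest Dlk1 at P14, 3.90 CPM. Its hypothalamic sum was 6.35 CPM, within a P14 F1 range of 5.24 to 7.57 CPM. In bulk tissue fewer cells of a type and less RNA per cell cannot be told apart, and the part of these cells in the members' changes was not tested.

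Other imprinted genes also moved in both directions. Of 43 tested, 7 rose and 12 fell in F1, with a median log2 fold change of 0.01, and 8 rose and 14 fell in 129S6, with a median of -0.17. Mkrn3, a gene of the same chromosome 7 domain as Ndn, fell by 1.99 ± 0.12 on the log2 scale in F1 (edgeR adjusted p = 8.67e-15) and by 1.95 ± 0.12 in 129S6 (edgeR adjusted p = 9.67e-15). Nnat (neuronatin) fell by 0.93 ± 0.05 in F1 and by 1.02 ± 0.04 in 129S6. Inpp5f, an inositol phosphatase gene, fell by 0.92 in F1 and by 0.80 in 129S6. Rasgrf1, an exchange factor for Ras in neurons, rose, with log2 fold changes of 0.65 in F1 and 0.67 in 129S6. Genes that overlap members were looked up after their values were known. Rtl1, over Meg3, had log2 fold changes of 0.26 in F1 and -0.32 in 129S6 and passed in neither. Copg2, over the end of Mest, had 0.10 in F1, not called, and rose in 129S6 with 0.36 ± 0.05 (edgeR adjusted p = 3.74e-06), while Mest fell there.

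**Figure D3:**
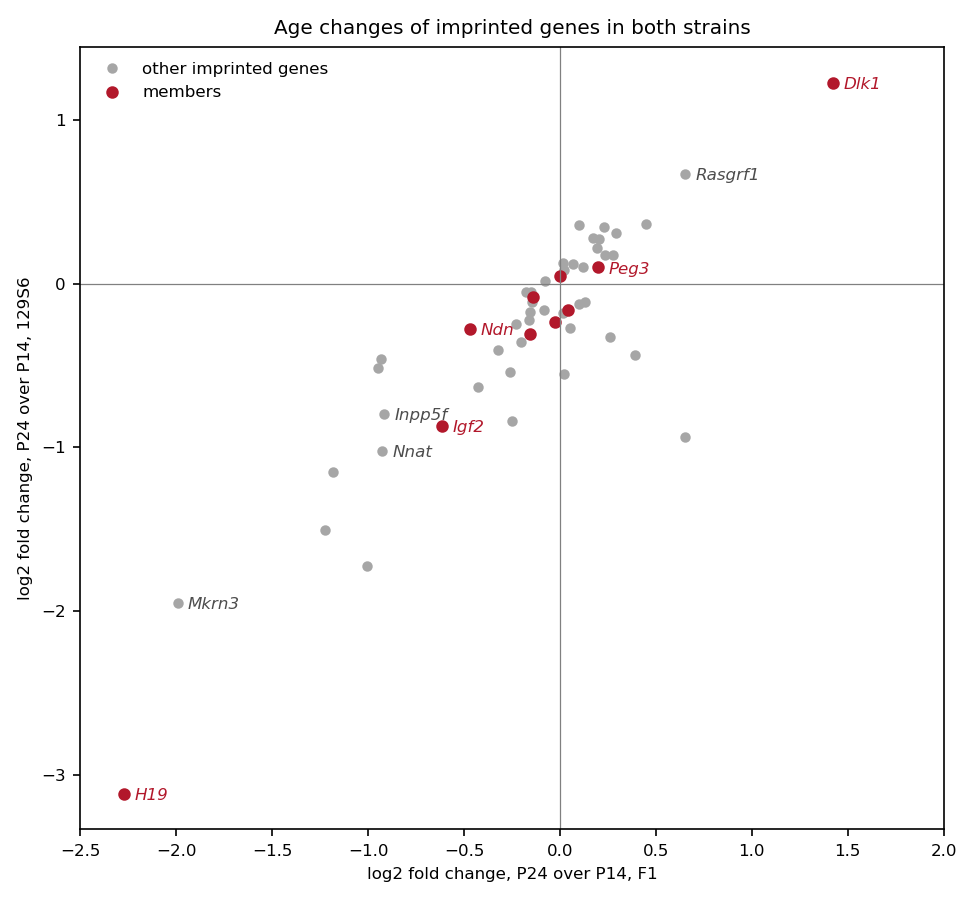
Log2 fold change from P24 over P14 in F1 (horizontal) and in 129S6 (vertical) for the 10 members (red) and 43 other tested imprinted genes (grey). H19, at -2.27 and -3.12, and Dlk1, at 1.42 and 1.23, lie at the 2 ends, with Mkrn3 between them at -1.99 and -1.95.

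Genes around the IGF ligands were set beside Igf2. Of 20 tested genes of the insulin-like growth factor pathway other than the members, 3 rose and 9 fell in F1, and 2 rose and 8 fell in 129S6. The list's median log2 fold change was -0.25 in F1 and -0.24 in 129S6. The ligand gene Igf1 fell by 0.94 ± 0.08 in F1 (edgeR adjusted p = 1.58e-10) and by 0.85 ± 0.08 in 129S6 (edgeR adjusted p = 7.03e-10). The binding-protein genes Igfbp4 and Igfbp2 fell by 0.74 each in F1 and by 0.65 and 0.72 in 129S6. Igfbp6 rose in F1 (log2 fold change 1.13 ± 0.14), and Igfbp7 fell by 0.93 ± 0.12 in 129S6.

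Of 29 tested growth and proliferation genes of the fetal period, 0 rose and 18 fell in F1, where 19.4% of all tested genes fell, and 1 rose and 18 fell in 129S6, where 17.1% fell, with medians of -0.55 in F1 and -0.47 in 129S6. Top2a, needed for chromosome separation, fell by 1.84 ± 0.17 in F1 and by 1.79 ± 0.17 in 129S6, and Mki67, a marker of dividing cells, by 1.30 in F1 and 1.35 in 129S6. Dnmt3a, a DNA methyltransferase, fell by 0.87 in F1 and by 0.99 in 129S6. Among 9 cell cycle inhibitors other than Cdkn1c, 6 fell and 0 rose in F1, 5 fell and 1 rose in 129S6, and Cdkn1a, which encodes p21, fell by 0.94 ± 0.11 in F1 and by 0.78 ± 0.11 in 129S6. Of 10 factors that keep or read imprints, 1 rose and 2 fell in F1 and 2 rose and 2 fell in 129S6: the zinc-finger gene Zfp57 fell by 0.62 in F1 and by 0.60 in 129S6, and Uhrf1 by 1.53 in F1 and by 0.97 in 129S6. Among 23 genes of the Notch pathway, which Dlk1 resembles in its EGF repeats, 4 rose and 8 fell in F1 and 2 rose and 11 fell in 129S6. The feedback inhibitor Nrarp fell by 0.62 in F1 and by 0.60 in 129S6, and the ligand gene Dll4 by 0.74 in F1 and by 1.23 in 129S6.

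Strain was compared at each age, F1 over 129S6. Igf2 was lower in F1 at both ages and H19 at P14. At P14, 0 members were higher and 2 lower in F1, where 2.04% of tested genes were higher and 1.66% lower. At P24, 0 were higher and 1 lower, where 3.46% of tested genes were higher and 2.87% lower. The median log2 fold change of the 10 was -0.14 at P14 and -0.06 at P24, beside 0.00 and -0.01 over all tested genes.

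Igf2 had a lowest value of 97.7, a median of 115 and a highest of 122 CPM in P14 F1 libraries, against 211, 183, 207, 193 and 222 CPM in P14 129S6 libraries. At P24 it had 68.7, 65.8, 75.8, 80.7 and 86.2 CPM in F1, against a lowest value of 105.5, a median of 109 and a highest of 131 CPM in 129S6. The strains did not overlap at either age. Igf2 was 1.81-fold lower in F1 at P14 (log2 fold change -0.85 ± 0.09, edgeR adjusted p = 7.03e-08) and 1.52-fold lower at P24 (log2 fold change -0.60 ± 0.09, edgeR adjusted p = 5.24e-05). With only the libraries labelled wild type, the P24 value was -0.42 (edgeR adjusted p = 0.0531).

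H19 had 3.48 to 5.66 CPM in P14 F1 libraries and 5.71 to 8.27 CPM in P14 129S6 libraries, ranges that nearly met. It was 1.66-fold lower in F1 (log2 fold change -0.73 ± 0.18, edgeR adjusted p = 0.0136). The call was lost without P14 F1 wild-type replicate 3 (adjusted p = 0.0524) or P14 129S6 wild-type replicate 2 (adjusted p = 0.13), and with only wild-type groups (log2 fold change -0.53, adjusted p = 0.596). At P24 H19 overlapped fully between strains, 0.712 to 1.04 CPM in F1 and 0.230 to 1.22 CPM in 129S6 (log2 fold change 0.11, 95% interval -0.51 to 0.73). Mest at P14, 14.3 to 20.4 CPM in F1 and 19.4 to 26.0 CPM in 129S6, lay at the threshold (log2 fold change -0.32 ± 0.09, edgeR adjusted p = 0.0553). It was called with DESeq2 (adjusted p = 0.0369), and by edgeR without the low-count filter (adjusted p = 0.0193), without the seizure libraries (adjusted p = 0.00915) and on its own groups alone (adjusted p = 0.0151). Of the 25 edgeR fits that left out 1 library, only 6 called it. These included the fits without seizure replicate 1, 2 or 3, which are outside the comparison.

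Leptomeningeal markers were lower in F1 too. At P14 they summed to 167 to 187 CPM in F1 and 199 to 232 CPM in 129S6, with 0 of 20 higher and 6 lower in F1. At P24 the sums were 145 to 161 CPM in F1 and 159 to 187 CPM in 129S6, with 0 higher and 2 lower. Ogn and Slc6a13, of meningeal fibroblasts, were lower at both ages, Ogn by 0.82 ± 0.14 at P14 and 0.67 ± 0.13 at P24 on the log2 scale, and their part in the Igf2 difference was not tested. Choroid plexus markers summed to 596 to 991 CPM in P14 F1 and 999.7 to 1557 CPM in P14 129S6 libraries, without overlap, with 0 of 15 higher and 4 lower in F1. At P24 they summed to 685 to 1056 CPM in F1 and 1027 to 1609 CPM in 129S6, with 0 higher and 2 lower. Of the 43 other imprinted genes, none was called between the strains by edgeR at either age. The smallest p there belonged to Ins2 at P14 (adjusted p = 0.0919) and Copg2 at P24 (adjusted p = 0.0502).

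The age change was then tested for a difference between strains, F1 minus 129S6. No member passed, beside 0.00628% of all tested genes, which is 1 gene. H19 had a difference of 0.84 ± 0.36 on the log2 scale (unadjusted p = 0.0252, edgeR adjusted p = 0.586), Meg3 0.20 ± 0.08 (unadjusted p = 0.0223, edgeR adjusted p = 0.581) and Igf2 0.25 ± 0.13 (edgeR adjusted p = 0.627). The larger fall of H19 in 129S6 is therefore not shown to differ from that in F1.

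**Figure D4:**
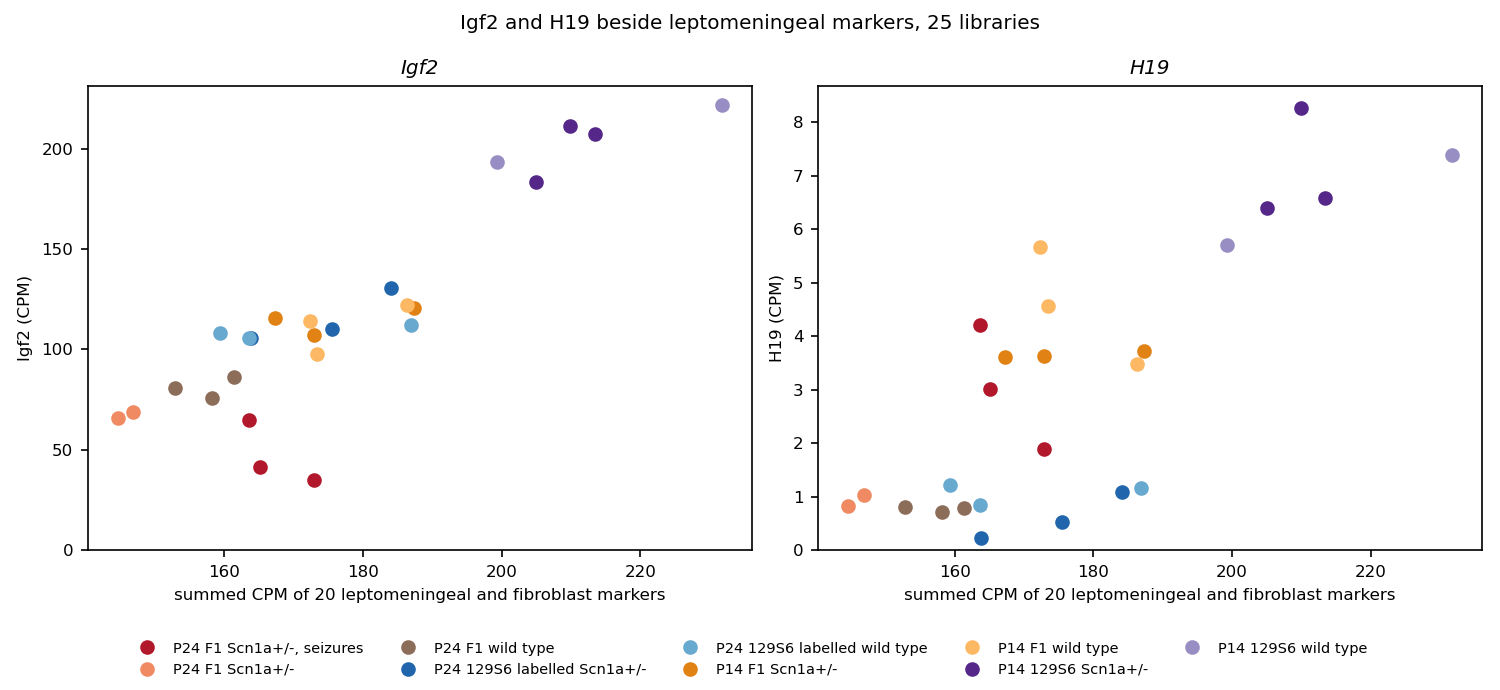
Igf2 (left) and H19 (right) in CPM against the summed CPM of 20 leptomeningeal and fibroblast markers, 1 point per library, coloured by group. Igf2 is highest, 183 to 222 CPM, in the P14 129S6 libraries, whose marker sums of 199 to 232 CPM are also the highest; the 3 seizure libraries have low Igf2, 35.0 to 64.9 CPM, at marker sums of 164 to 173 CPM.

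Seizures were compared within P24 F1 mice, first with Scn1a+/- mice for which no seizures are stated and then with wild type. The 2 comparisons share the seizure libraries. Seizure pools held 3 to 4 mice and the others 12 to 16, so seizures and pool size cannot be told apart in either comparison. H19 was higher, and Igf2, Meg3 and Peg3 were lower, with seizures in both. In each, 1 member was higher and 3 lower. Against Scn1a+/- mice without stated seizures, 8.72% of tested genes were higher and 7% lower, and against wild type 12.4% were higher and 10.1% lower. The median log2 fold change of the 10 was -0.05 against Scn1a+/- and -0.12 against wild type, beside 0.01 over all tested genes in both.

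H19 had 3.01, 4.22 and 1.90 CPM in seizure libraries, against 1.04 and 0.832 CPM in Scn1a+/- libraries and 0.712, 0.799 and 0.779 CPM in wild-type libraries. All 3 seizure libraries were above all 5 others. The counts behind these values were 67, 83 and 39 in seizure libraries and 12 to 19 in the others. H19 was 3.29-fold higher than in Scn1a+/- mice (log2 fold change 1.72 ± 0.36, edgeR adjusted p = 0.000903) and 3.94-fold higher than in wild type (log2 fold change 1.98 ± 0.30, edgeR adjusted p = 5.29e-06). Without Scn1a+/- replicate 2 the first was 1.53 and missed the threshold (adjusted p = 0.0509).

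Igf2 had 41.3, 64.9 and 35.0 CPM in seizure libraries, against 68.7 and 65.8 CPM in Scn1a+/- libraries and 75.8, 80.7 and 86.2 CPM in wild-type libraries. The highest seizure library came within 1 CPM of the lower Scn1a+/- library, and the other 2 were far below. Igf2 was 1.43-fold lower than in Scn1a+/- mice (log2 fold change -0.52 ± 0.14, edgeR adjusted p = 0.011) and 1.72-fold lower than in wild type (log2 fold change -0.78 ± 0.13, edgeR adjusted p = 1.66e-05). Without 1 or the other Scn1a+/- library the first call was lost (adjusted p = 0.0708 and 0.0586), and without the second seizure library, the highest of the 3, that log2 fold change was -0.82. H19 and Igf2 thus moved in opposite directions with seizures and in the same direction with age.

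Meg3 had 3867, 4582 and 3959 CPM in seizure libraries, against 5588 and 5535 CPM in Scn1a+/- libraries and 4767, 5714 and 5851 CPM in wild-type libraries. The seizure libraries were the 3 lowest of the 25. The log2 fold change was -0.43 ± 0.09 against Scn1a+/- (edgeR adjusted p = 0.000523) and -0.40 ± 0.08 against wild type (edgeR adjusted p = 0.000252). Peg3 had 180, 178 and 217 CPM in seizure libraries, against 239 and 221 CPM in Scn1a+/- libraries and 247, 239 and 244 CPM in wild-type libraries. It too did not overlap, with log2 fold changes of -0.26 ± 0.08 against Scn1a+/- (edgeR adjusted p = 0.0199) and -0.34 ± 0.07 against wild type (edgeR adjusted p = 0.000389). The first was lost without seizure replicate 1 or 2 or without Scn1a+/- replicate 1 (adjusted p = 0.0518, 0.069 and 0.155).

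These calls lean on the spread of all 9 groups. Fitted on the libraries of each comparison alone, H19 was the only member called against Scn1a+/- mice, and H19 and Igf2 against wild type. In those fits the adjusted p for Igf2, Meg3 and Peg3 was 0.194, 0.237 and 0.444 against Scn1a+/-, and for Meg3 and Peg3 it was 0.0713 and 0.0506 against wild type.

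The other 6 members were not called in either comparison with all libraries in the fit, but single seizure libraries decided several of these. Without seizure replicate 3, Grb10 was called against wild type (log2 fold change -0.39, edgeR adjusted p = 0.00246) and against Scn1a+/- (-0.32, adjusted p = 0.0447), and Ndn against wild type (-0.33, adjusted p = 0.00237). Without seizure replicate 2, Ndn was called in the other direction against Scn1a+/- (0.26, edgeR adjusted p = 0.0235). Without seizure replicate 1, Mest was called against Scn1a+/- (0.39, edgeR adjusted p = 0.0485) and wild type (0.36, adjusted p = 0.028). Dlk1 had 5.84, 6.30 and 10.6 CPM in seizure libraries, against 4.42 and 6.10 CPM in Scn1a+/- libraries and 6.81, 5.26 and 5.63 CPM in wild-type libraries, with only the third seizure library standing out. Ndn spread widely with seizures, at 163, 115 and 192 CPM, against 152 and 144 CPM in Scn1a+/- libraries. Mest had 18.1, 19.9 and 26.0 CPM in seizure libraries and 16.5 to 18.4 CPM in the other 5 (log2 fold change 0.27 against wild type, edgeR adjusted p = 0.106). Grb10 had 19.5, 20.1 and 24.9 CPM in seizure libraries, below 25.4 to 26.4 CPM in wild type (log2 fold change -0.26 ± 0.10, edgeR adjusted p = 0.0534), and it was called in 12 of the 25 fits that left out 1 library. Of these 12, only the fit without seizure replicate 3 dropped a library of the comparison. The others dropped libraries outside it and gave log2 fold changes of -0.27 to -0.26. Cdkn1c had 6.48 to 8.94 CPM and Plagl1 13.8 to 23.8 CPM with seizures, ranges that took in or overlapped those of the other P24 F1 libraries.

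Among the other imprinted genes, 4 of 43 were higher and 3 lower with seizures than in Scn1a+/- mice, and 6 higher and 4 lower than in wild type. Nnat was higher than in Scn1a+/- mice by 0.54 ± 0.07 and than in wild type by 0.65 ± 0.06 on the log2 scale, and Peg10, a gene derived from a retrotransposon, by 0.86 and by 0.82 over the same 2 groups. Rasgrf1 had log2 fold changes of -0.35 against Scn1a+/- and -0.54 against wild type, and the potassium channel gene Kcnk9 of -0.55 against Scn1a+/- and -0.74 against wild type. In the IGF pathway, 5 of 20 were higher and 2 lower than in Scn1a+/- mice, and 4 higher and 3 lower than in wild type. Pappa, a protease that frees IGFs by cleaving binding proteins, was higher than in Scn1a+/- mice by 3.12 ± 0.32 (edgeR adjusted p = 1.6e-08) and than in wild type by 2.79 ± 0.25 (edgeR adjusted p = 3.11e-10). Igfbp6 was higher by 1.00 in both, and Stc1, an inhibitor of that protease, had log2 fold changes of -0.97 against Scn1a+/- and -1.09 against wild type. Cdkn1a was higher by 1.69 ± 0.17 than in Scn1a+/- mice and by 1.46 ± 0.14 than in wild type, while Cdkn1c was not called.

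Marker sums of other cells also differed with seizures. Immature-neuron markers summed to 690 to 838 CPM in seizure libraries and 530 to 558 CPM in the other P24 F1 libraries. Tubb3 and Tubb2b, with means of 223 and 168.5 CPM over all libraries, weigh most in that sum. Astrocyte markers, where Slc1a2 weighs most, summed to 8704 to 9883 CPM with seizures and 7394 to 8623 CPM without. Whether the single markers of these lists moved together is not given here. Leptomeningeal markers summed to 164 to 173 CPM with seizures and 145 to 161 CPM without, while the median log2 fold change of the 20 was -0.15 against Scn1a+/- and -0.13 against wild type. Of these 20, 4 were higher and 4 lower than in Scn1a+/- mice, and 3 higher and 6 lower than in wild type. Against Scn1a+/- mice the collagen gene Col3a1 by 1.56 ± 0.16 and Bgn by 1.11 ± 0.14 on the log2 scale were among the higher, and Slc6a13 and Fmod, at -1.27 and -1.09, among the lower. Choroid plexus markers summed to 681, 1290 and 647 CPM in seizure libraries 1, 2 and 3, against 776 and 685 CPM in Scn1a+/- libraries and 969, 1013 and 1056 CPM in wild-type libraries. Replicate 2, the highest of the 3 in these markers, was also the highest of them in H19, Igf2 and Meg3. Of the 15, none was called against Scn1a+/- by edgeR, and 0 were higher and 1 lower than in wild type. Oligodendrocyte markers summed to 10230 to 16130 CPM with seizures and 14040 to 16200 CPM without, with 0 of 10 higher and 6 lower than in wild type. Hypothalamic markers summed to 14.3 to 20.0 CPM with seizures and 5.65 to 6.28 CPM without. Of the 5 tested, Gal and Trh were higher (log2 fold changes 2.98 ± 0.33 and 2.40 ± 0.57) and the other 3 were not called. Oxt was at 0 in all 3 seizure libraries, and Hcrt stayed at or below 0.0487 CPM there. Over all 25 libraries Oxt was at 0 in 16 and Hcrt in 14, so these low values do not set the seizure libraries apart. The part of these cells in the members' differences was not tested.

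Genotype was compared in each age and strain, Scn1a+/- over wild type. No member was called in any of the 4 comparisons, where edgeR called 0% of tested genes. Scn1a itself was not called either. Its log2 fold change was -0.29 in P24 F1 (edgeR adjusted p = 0.833) and -0.18 in P14 F1 (edgeR adjusted p = 0.994). The 0% also rests on the shared fit. Without the seizure libraries, which none of these comparisons uses, edgeR called 200 genes in P24 F1, with 0 members. A missing call here thus does not show that a gene is unchanged by genotype. With all libraries in the fit, 889 genes had an unadjusted p under 0.05 in P24 F1 and 724 in P14 F1. There were 471 in P24 129S6 by label and 391 in P14 129S6, and none of these genes was a member. H19 had 1.04 and 0.832 CPM in P24 F1 Scn1a+/- libraries, against 0.712, 0.799 and 0.779 CPM in wild type (log2 fold change 0.26, 95% interval -0.61 to 1.14). Igf2 had 68.7 and 65.8 CPM, against 75.8, 80.7 and 86.2 CPM (log2 fold change -0.27, 95% interval -0.56 to 0.02).

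The genes most like each member over the 25 libraries were found by Pearson's r of log2 CPM, a description over libraries that share age, strain and seizure differences. H19 was most like Cd93 (r = 0.925), Nnat (0.923) and Hmgcs1 (0.919), and Igf2 most like Clec3b (0.933), Plcxd2 (0.923) and Hrk (0.903). Dlk1 was most like Vamp1 (0.906), Slc6a9 (0.894) and Cpne7 (0.889), and Meg3 most like Strbp (0.836), Miat (0.827) and Ppfibp1 (0.817). Ndn had the closest companions, with Mapre2 at 0.961, Ppp2r1a at 0.956 and Cend1 at 0.948. Peg3 reached 0.891 with Hap1, Grb10 0.855 with Arhgap26 and Cdkn1c 0.813 with Ccdc50. Mest, at 0.730 with Mgat5, and Plagl1, at 0.688 with Myo9a, had the least similar ones.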

How the data were processed

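Hippocampal RNA was sequenced in 25 libraries, grouped here by titles and characteristics. The authors deposited whole-number read counts per gene symbol, 1 file per library. Their processing notes, per the labels, list the build mm10 and the tools HTSeq 0.6.1p1, TopHat2 2.1.0 and CASAVA. Which annotation and strand setting were used is not given in the sources used here; overlapping genes stay unresolved. The deposited normalized table was not used. Separate litters or days are not documented for the pools of a group: a p-value here reflects how far those pools differed, which may be technical. No 2 libraries of a group agreed within sampling noise.

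The model was a single quasi-likelihood fit in edgeR 4.0.16 (with R 4.3.3 and limma 3.58.1) with 1 coefficient per group, TMM scaling and filterByExpr at a minimum count of 10. It had 16 residual and 15.5 prior degrees of freedom and a common biological coefficient of variation of 7.57%. Calls were made at a Benjamini-Hochberg adjusted p under 0.05 over 15912 genes. Each ± value is an SE, obtained from the log2 fold change and its F statistic, and 95% intervals use the t distribution. CPM was computed here from the counts. Every member was named; from each list, up to 4 called genes of smallest p, or up to 2 where none was called, and for each member up to 3 most alike genes (prior count 2). A few genes beyond this rule were named for overlap with a member, cell identity or level. Members and lists were chosen with earlier results of these data known. Alternatives were RLE scaling, DESeq2 1.42.0, no low-count filter, own groups only, no seizure libraries, groups labelled wild type only, and leaving out each library.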

Additional observations from a re-analysis of the deposited data

Results flagged for a closer look

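Ndn went opposite ways with genotype at the 2 ages of F1. At P24 it had 152 and 144 CPM in Scn1a+/- libraries, against 192, 163 and 164 CPM in wild-type libraries (log2 fold change -0.23). At P14 it had 228, 232 and 225 CPM in Scn1a+/- libraries, against 214, 210 and 222 CPM in wild-type libraries (log2 fold change 0.08). Every Scn1a+/- library was below every wild-type library at P24 and above every one at P14. Groups of 2 or 3 libraries part easily: H19, Igf2 and Peg3 also did not overlap between genotypes in P24 F1. The share of all genes that part in this way was not counted. The difference of the 2 effects, P24 minus P14, was -0.31 ± 0.15 on the log2 scale and did not pass (unadjusted p = 0.051, edgeR adjusted p = 0.877), and neither effect was called alone. The P24 effect was -0.15 without wild-type replicate 1, the library at 192 CPM.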

How the results depend on the processing

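No paired analysis was possible because numbering in the titles runs on from group to group, so no number is shared. No called member changed direction under any alternative run: of 697 refits of called member results, 656 kept the call and 41 lost it, and of 901 refits of uncalled ones 28 gained a call. Many of these refits left out a library outside the comparison, so the groups compared stayed the same. The share that kept the call therefore does not measure how far a call depends on its own libraries. The cause of the shifts below was not tested unless stated. Low counts limit H19 most, with 3 to 21 per P24 129S6 library.

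Counts of called genes moved as follows. Without the low-count filter they were 6 for the age by strain difference and, for genotype, 9 in P24 F1, 3 in P24 129S6 and 4 in P14 129S6. Without the seizure libraries they were 991 (strain, P14), 2104 (strain, P24, with 2 members), 42 (age by strain), 200 (genotype, P24 F1) and 2 (genotype, P24 129S6). In fits on the libraries of each comparison alone they were 1051 and 1950 for strain at P14 and P24, 633 (1 member) and 1615 (2 members) for seizures against Scn1a+/- and wild type, and 3, 1 and 2 for genotype in P24 F1, P14 F1 and P24 129S6. With groups labelled wild type only they were 2833 (3 members) for age in 129S6, 179 (1 member) and 488 (0 members) for strain at P14 and P24. The P24 129S6 labels went against Scn1a, and exchanging them would change the values of this alternative that use those libraries. DESeq2 called 2 for age by strain.

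Leaving out each library gave 5001 to 6706 genes (5 members) for age in F1, 4386 to 6112 (5 to 7) in 129S6, 380 to 811 (1 to 3) for strain at P14 and 423 to 1606 (1) at P24, the lowest being without P24 F1 Scn1a+/- replicate 2. It gave 1 to 3 for age by strain, 1519 to 2964 (2 to 5) and 2640 to 4751 (4 to 6) for seizures against Scn1a+/- and wild type, and for genotype 0 to 5 in P24 F1 and 0 to 1 in P24 129S6, with 0 in both P14 strains.

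Some uncalled values changed sign. With groups labelled wild type only, the age change in F1 was -0.0098 for Meg3 and 0.19 for Plagl1, and H19 at P24 was -0.42 between strains. Plagl1 was 0.0019 for age in F1 with DESeq2. Leaving out 1 library took the F1 age change to between -0.0672 and 0.0817 for Plagl1 and between -0.0818 and 0.0418 for Mest, H19 between strains at P24 to between -0.0814 and 0.44, and, with seizures, Plagl1 to between -0.10 and 0.25 against Scn1a+/- and between -0.22 and 0.12 against wild type, and Ndn to between -0.10 and 0.26 against Scn1a+/- and between -0.33 and 0.0383 against wild type. Ndn was called in 1 such fit of each seizure comparison, in opposite directions.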
